A study of Mus musculus with 2 samples.

Results

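The genes described here encode the proteins of the cytosolic ribosome, with a few close relatives. They were taken from GENCODE release M21 as the autosomal protein-coding genes whose symbols are Rpl or Rps followed by a number, or Rplp0, Rplp1, Rplp2 or Rpsa, without the Rps6k kinases and without pseudogene symbols (-ps). The rule gave 82 genes of 20807 autosomal protein-coding genes. Of these, 73 encode standard subunits of the ribosome, 30 in the small 40S subunit and 43 in the large 60S subunit. Of the other 9, 8 (Rps27l, Rps27rt, Rpl3l, Rpl7l1, Rpl10l, Rpl22l1, Rpl36al and Rpl39l) are relatives of subunit genes, and the last is Rps19bp1, which encodes a protein that binds Rps19 and is no subunit. The X-linked subunit genes Rpl10, Rpl36a, Rpl39 and Rps4x lie outside the rule, as does Fau, which encodes a ribosomal protein under another symbol.

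DNase-seq cuts open chromatin in nuclei with the nuclease DNase I, so that a peak of cuts marks DNA that is accessible, as at a promoter or an enhancer. The study measured 1 group, kidney tissue of mice of strain B6NCrl, a C57BL/6N substrain, on postnatal day 0, in 2 libraries that the labels call biological replicates 1 and 2. Both carry the same donor record, separate animals are not stated, and sex was not collected, and their spread can therefore be technical. There was no other tissue, age or treatment, and whole kidney mixes many cell types, so a lower signal cannot be told apart from fewer cells with an open promoter. Replicate 1 held 266133 peaks and replicate 2 held 257133, with unknown read depth. The label of kidney was checked on 12 kidney genes, among them Six2, Pax2 and Umod, and all 12 had a promoter peak in both replicates. Of the markers of other cells, 3 of 5 leukocyte, 2 of 4 erythroid and 1 of 3 hepatocyte genes also had one. Mean signals ran from 24.02 to 116 for the kidney genes and from 11.4 to 59.4 for the others, so that they overlapped. Of the 12 kidney genes, 1 lay above 102, the median of all autosomal genes with a promoter peak.

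Ribosomal proteins are needed in nearly fixed proportions, and their genes are among the most highly transcribed genes of growing cells. Their mRNAs mostly begin with a C followed by a run of pyrimidines, the terminal oligopyrimidine (TOP) motif, through which the kinase mTORC1 and the RNA-binding protein LARP1 control translation. The same pyrimidine stretch at the start site acts as the TCT initiator of transcription, and these promoters rarely hold a TATA box. The newborn mouse kidney is still growing and forming nephrons.

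All 73 standard subunit genes had a DNase peak at most 1 kb from a transcription start site (TSS) of the annotation in both replicates, and so had 5 of the other 9 genes, namely Rps27l, Rpl7l1, Rpl22l1, Rpl36al and Rps19bp1. This made 78 of 82 genes (95.1%), beside 73.4% of all autosomal protein-coding genes. The 4 without a peak were Rps27rt, Rpl10l, Rpl39l and Rpl3l, and no gene had a peak in only 1 replicate. In the authors' units, the median over the genes of their strongest promoter peak was 160 for replicate 1 and 187 for replicate 2 (174 ± 18.9, SD, n = 2). Over all autosomal genes with a promoter peak the medians were 97.2 and 107 (102 ± 6.61, SD, n = 2). The mean signal lay above the median of all genes in 76 of the 78, and below it at Rpl6 and Rpl4. Their place among all genes with a promoter peak was high but not extreme, with a median percentile of 77.7 in replicate 1 and 79.9 in replicate 2. Measured against all peaks of the genome, the weakest of them, Rpl6, stood at percentile 95.4 in replicate 1 and 95.6 in replicate 2. Such a place is common for promoters, since Rpl6 stood only at percentiles 45.8 and 47.2 among genes with a promoter peak.

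**Figure D1:**
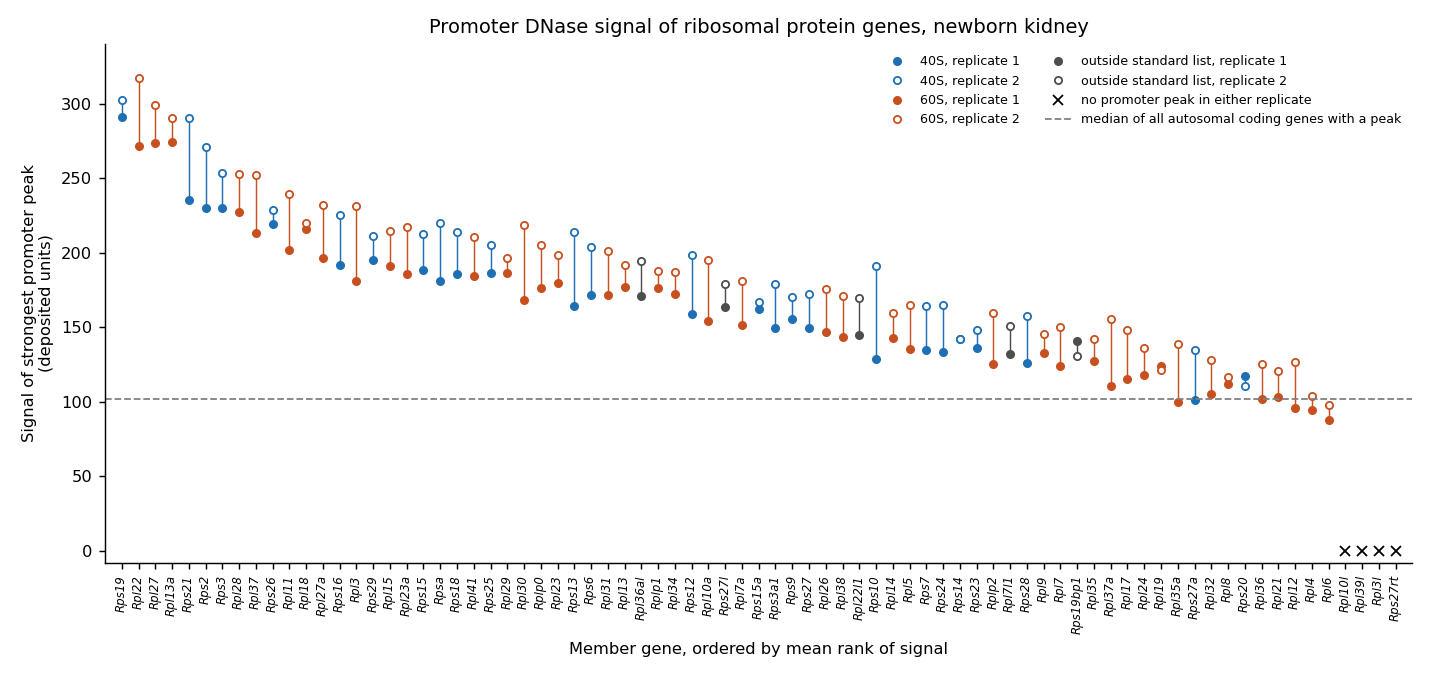
Signal of the strongest promoter peak (vertical axis, deposited units) for 77 of the 82 genes, ordered by mean rank, with filled points for replicate 1, open points for replicate 2 and crosses for genes without a peak; the dashed line is the median of all autosomal coding genes with a peak. The points fall steadily from Rps19 to Rpl6 with no gap, and the 4 crosses are all relatives of subunit genes.

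Both subunits had genes among the strongest promoters, and the 40S genes are given first. Rps19, which is mutated in Diamond-Blackfan anaemia, had the highest signal, 291 in replicate 1 and 302 in replicate 2 (297 ± 7.90, SD, n = 2). Rps21 gave 235 in replicate 1 and 290 in replicate 2 (263 ± 38.9, SD, n = 2), and its replicates lay farther apart than those of Rps19. Signals of 230 and 271 were seen at Rps2, and 230 and 253 at Rps3, which lines the mRNA entry channel. Rps6, the target of S6 kinase, had 172 and 204, and Rpsa, also known as the laminin receptor, had 181 and 220. The medians of the 30 genes were 163 and 201.

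Among the 60S genes, Rpl22 had 272 in replicate 1 and 317 in replicate 2 (294 ± 32.03, SD, n = 2), so that it stood below Rps19 in replicate 1 and above it in replicate 2. Rpl27 had 274 and 299 (286 ± 17.9, SD, n = 2). Rpl13a, which also takes part in translational silencing outside the ribosome, had 274 and 290 (282 ± 11.4, SD, n = 2). Rpl27 and Rpl13a lay below Rps19 in both replicates, although replicate 2 of Rpl27 exceeded replicate 1 of Rps19. The lowest values of all 78 genes were those of 60S genes, Rpl6 with 87.8 and 97.8 (92.8 ± 7.07, SD, n = 2) and Rpl4 with 94.3 and 104 (99.2 ± 6.87, SD, n = 2). Rpl12, a protein at the base of the stalk, had 95.5 and 126, and Rpl21 had 103 and 120. Across the whole set, Rps19 at the top and Rpl6 at the bottom were far apart in both replicates. Rpl5 and Rpl11, which bind 5S rRNA together and can inhibit Mdm2, differed from each other, with 135 and 165 at Rpl5 and 202 and 239 at Rpl11.

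The acidic stalk of the 60S subunit, which recruits translation factors, is built from the products of Rplp0, Rplp1 and Rplp2. Rplp0 had signals of 177 and 205 and Rplp1 of 176 and 187, so that these overlapped. Rplp2 was lower, at 125 and 160. The medians of all 43 60S genes were 154 and 187. The 40S medians of 163 and 201 were higher within each replicate. The mean signals of the subunits overlapped over most of their ranges, from 110 to 297 for 40S genes and from 92.8 to 294 for 60S genes.

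In both replicates, 12 of 82 (14.6%) were in the highest 10% of genes with a promoter peak, beside 6.35% of all autosomal genes. The −log10 p of the peak reached the upper limit of the deposited scale, 324, in both replicates for 41 of 82 genes, beside 18.3% of all genes. For 38 of 82 (46.3%), the promoter peak was the strongest peak within 50 kb in both replicates, beside 31.5% of all genes. Rps19, Rpl22, Rpl27, Rpl13a, Rps21 and Rps3 were among these. Genes without a promoter peak count as not reaching the mark in each of these shares. Among genes with a promoter peak in both replicates, the counts in the same order were 12, 41 and 38 of 78. Over all autosomal genes with such a peak they were 1322, 3802 and 6563 of 15262, so part of each difference reflects the share of genes with a peak.

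Related genes gave values to set beside these. The 78 autosomal mitochondrial ribosomal protein genes all had a promoter peak, with medians of 116 and 134 (125 ± 13.1, SD, n = 2). Translation factors and other TOP mRNAs, 17 of 17 with a peak, had medians of 169 and 194, and Eef1a1, the elongation factor that brings aminoacyl-tRNA, had 248 and 240. Ribosome biogenesis genes, 20 of 20 with a peak, had 154 and 176. Of the ribosomal components outside the symbol rule, Fau, whose product is cleaved to a 40S protein, had 175 and 201. The X-linked Rps4x had 68.4 and 57.9, and Rpl39 had 83.2 and 84.5, both below every autosomal standard gene in the respective replicate. The X-linked Rpl10, with 123 and 135, lay within the autosomal range. Rpl36a, also X-linked, had 85.2 and 111, below that range in replicate 1 and within it in replicate 2. Sex was not collected, which limits the comparison of X-linked with autosomal values.

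Start sites show the pyrimidine runs of these genes in the genome sequence, GRCm38, the same build as mm10. The windows run from 30 bases before to 20 bases from the main TSS, and the capitals mark the run of C and T from the C at the start. They come from Rps24 at chr14:24490688-24490737 (plus strand), Rps2 at chr17:24720080-24720129 (plus strand), Rpl30 at chr15:34443203-34443252 (minus strand), Rpl4 at chr9:64173345-64173394 (plus strand) and Rpl37 at chr15:5116615-5116664 (plus strand). They are shown as examples of such runs, which hold, counted after the first C, 16 pyrimidines at Rps24, 12 at Rps2, 7 at Rpl30, 7 at Rpl4 and 6 at Rpl37.
Rps24: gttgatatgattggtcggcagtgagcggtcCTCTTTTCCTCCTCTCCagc
Rps2: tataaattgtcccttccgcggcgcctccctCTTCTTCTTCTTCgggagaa
Rpl30: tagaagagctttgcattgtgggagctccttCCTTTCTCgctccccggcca
Rpl4: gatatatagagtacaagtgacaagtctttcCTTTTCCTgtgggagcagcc
Rpl37: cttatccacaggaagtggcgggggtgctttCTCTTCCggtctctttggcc

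The windows of Rpl10l and Rpl3l, a pair of relatives without a promoter peak, have no such run at the start. Neither have most standard genes, since 10 of 73 had one at the main TSS, and Rps27rt, also without a peak, has one of 5 pyrimidines. The windows shown are Rpl10l at chr12:66284382-66284431 (minus strand) and Rpl3l at chr17:24727790-24727839 (plus strand). They are given in lower case throughout.
Rpl10l: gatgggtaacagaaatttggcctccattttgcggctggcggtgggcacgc
Rpl3l: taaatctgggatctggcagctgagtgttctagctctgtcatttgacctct

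A C followed by at least 4 pyrimidines at the annotated main TSS was present in 11 of 82 genes (13.4%), beside 2.29% of all autosomal genes. At any annotated TSS of a coding transcript it was present in 22 (26.8%), beside 5.18%. Rpl4, with one of the lowest signals, and Rps2, with one of the highest, both held a run. An initiator hexamer (CTTTCC, or else CTTTTC, or else CTTTCT, or else CTTTTT, on the sense strand) began within 5 bp of the main TSS in 11 genes (13.4%), beside 1.67% of all genes. In a wider window, from 50 bp before to 100 bp after, 45 genes (54.9%) held one, beside 20.4%. That window was chosen after seeing the data. Annotated starts can differ from those that the cells used, which were not measured. A TATA box (TATAAA, 40 to 20 bp before the TSS, sense strand) was found only at Rps2, 1 of 82 (1.22%). The share was 2.50% over all genes and 1.24% over genes with a promoter peak. The letters of the Rps2 match can be read in the window above.

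The peaks themselves are short, and 4 of them show where known motifs lie. They are Rpl13a at chr7:45128821-45128970 (minus strand), Rps21 at chr2:180257201-180257350 (plus strand), Rpl37 at chr15:5116421-5116570 (plus strand) and Rplp0 at chr5:115559321-115559470 (plus strand), 150 bases each, read in the direction of transcription. Capitals mark exact matches. In Rpl13a these are an E-box, an SP/KLF box and 2 CCAAT boxes, in Rps21 an ETS core, in Rpl37 an SP/KLF box and a CCAAT box, and in Rplp0 a pair of CCAAT boxes, some of them on the other strand.
Rpl13a: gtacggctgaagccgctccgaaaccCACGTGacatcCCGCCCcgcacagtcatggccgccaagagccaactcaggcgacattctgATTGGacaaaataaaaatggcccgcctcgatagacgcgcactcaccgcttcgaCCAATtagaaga
Rps21: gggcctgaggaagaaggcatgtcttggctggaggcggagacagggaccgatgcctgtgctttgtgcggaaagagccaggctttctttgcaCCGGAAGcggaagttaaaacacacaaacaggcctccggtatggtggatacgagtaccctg
Rpl37: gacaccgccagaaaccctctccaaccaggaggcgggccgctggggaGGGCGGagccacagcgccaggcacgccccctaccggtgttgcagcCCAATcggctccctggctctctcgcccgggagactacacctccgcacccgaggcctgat
Rplp0: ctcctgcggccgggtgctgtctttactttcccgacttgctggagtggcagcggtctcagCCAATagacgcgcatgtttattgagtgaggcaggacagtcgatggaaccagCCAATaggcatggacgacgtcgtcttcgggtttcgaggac

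Motifs were counted from 250 bp before to 50 bp after the main TSS on both strands. The ETS core CCGGAAG, bound by ETS factors such as GABPA, was found at 29 of 82 genes (35.4%), beside 11.5% of all autosomal genes and 14.8% of those with a promoter peak. Its median position was −24 bp, and of the 28 genes with both a match and a peak, 17 had a match inside the peak in both replicates. This count was 27 of 41 for the SP/KLF box and 20 of 23 for the CCAAT box. It was 5 of 10 for the E-box, 3 of 7 for YY1 and 2 of 2 for the NRF1 core. The same shares over all genes were not computed. Rps21 held a pair of ETS core matches, of which the farther lies in the printed peak. Rps19, Rpl22, Rpl27 and Rpl13a, the 4 highest by mean rank, had no match. The YY1 motif AANATGGCG was at 7 genes (8.54%), beside 3.16% of all genes and 4.12% of those with a promoter peak. The E-box CACGTG, read by MYC and USF factors, was at 10 genes (12.2%), beside 7.76% and 9.29%. The SP/KLF box GGGCGG was at 51.2% of the genes, beside 46.1% of all genes and 59.9% of those with a promoter peak. The CCAAT box, bound by NF-Y, was at 28.0%, beside 38.1% of all genes. The NRF1 core CGCATGCG was at 2 genes (2.44%), beside 2.40%. Each motif was counted on its own, so matches of different motifs can share bases. The CpG observed over expected ratio within 500 bp of the TSS had a median of 0.818, beside 0.582 for all genes. Related lists were also above all genes, with 0.843 for translation factors and other TOP mRNAs and 0.784 for ribosome biogenesis. The median for mitochondrial ribosomal proteins was 0.727. A match shows only that the letters are present.

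**Figure D2:**
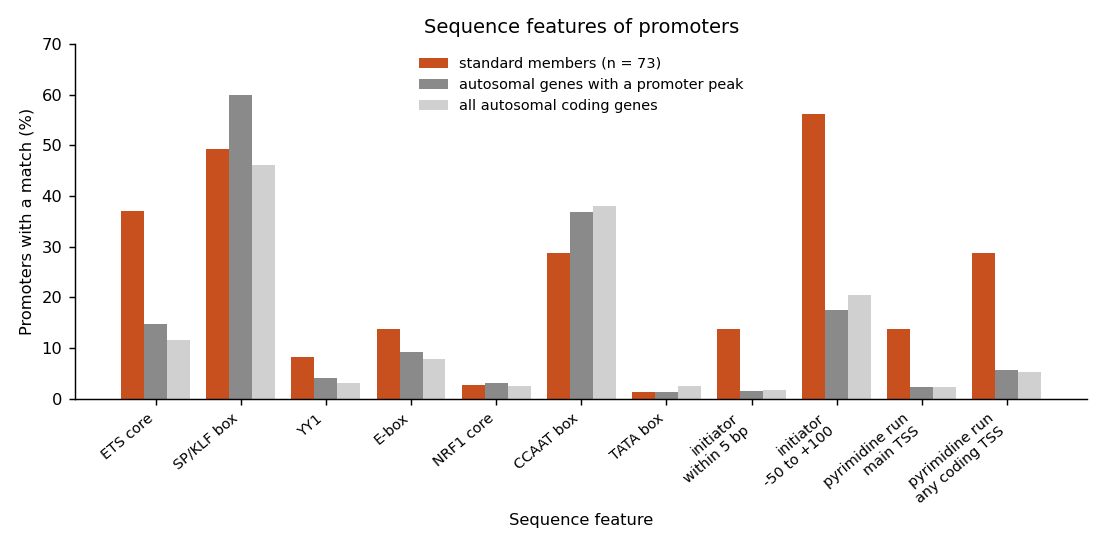
Percent of promoters with each sequence feature (vertical axis) for the 73 standard subunit genes, autosomal genes with a promoter peak and all autosomal coding genes, where the initiator and pyrimidine runs lie at the start site. The ETS core bar of the standard genes stands at 37.0%, beside 14.8% and 11.5%, while their CCAAT bar, 28.8%, is below the others.

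The strongest peak sat just upstream of the start. Its centre had a median position of −37 bp from the main TSS in replicate 1 and −40 bp in replicate 2 (−38.5 ± 2.12, SD, n = 2), beside −43.5 and −45.5 bp for all genes. Of the 78 centres, 63 (80.8%) in replicate 1 and 61 (78.2%) in replicate 2 lay within 100 bp of the main TSS. For all genes with a promoter peak these shares were 48.8% and 49.2%. Counted from the nearest TSS of the gene, the shares were 91.0% and 88.5%, beside 62.5% and 63.1% for all genes. Other lists were also above all genes by this measure, with 89.7% and 87.2% for mitochondrial ribosomal proteins, 85% and 80% for ribosome biogenesis and 82.4% and 76.5% for translation factors and other TOP mRNAs. Relative to the main TSS, the middle 50% of centres ran from −73.2 to −13.0 bp in replicate 1, beside −128 to 36.5 bp. Relative to the nearest TSS of the gene, 65 of the 78 (83.3%) in replicate 1 lay upstream, beside 74.3% of all genes with a promoter peak. The genes had a median of 6 annotated TSSs, beside 4 for all genes, and a median length of 3400 bp, beside 24228 bp.

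**Figure D3:**
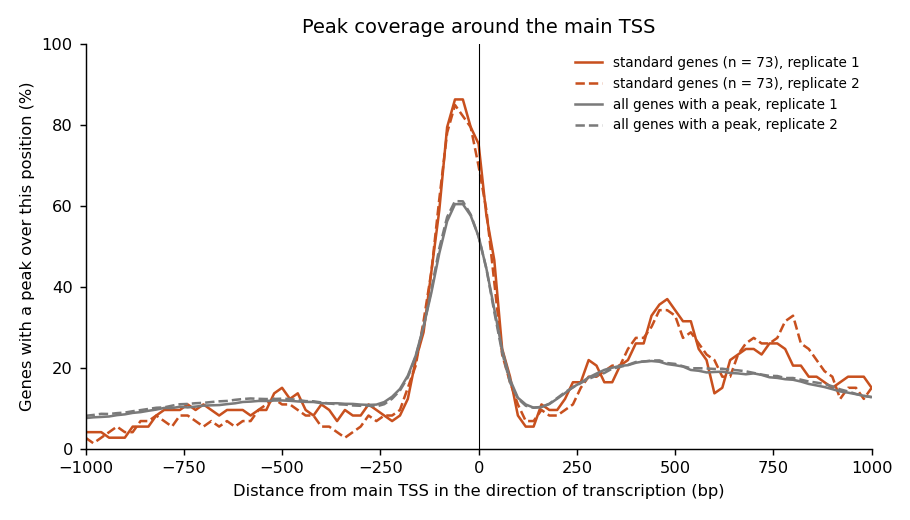
Percent of genes with a peak over each position from 1000 bp before to 1000 bp after the main TSS (horizontal axis, bp), for the 73 standard subunit genes and all autosomal coding genes with a promoter peak, in replicates 1 (solid) and 2 (dashed). The standard genes reach 86.3% and 84.9% at −60 bp, against 60.4% and 61.2%, and both sets show a second, lower rise downstream.

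A few genes had their strongest peak far from the main TSS. At Rpl18 it was centred at −2716 bp, and with the main TSS alone another peak of 190 ± 28.0 (SD, n = 2) replaced it. At Rps27a, which encodes ubiquitin fused to a 40S protein, it was at −336 bp, and at Rpl19 it was at −268 and −248 bp. Downstream positions were +456 bp at Rps25, +428 bp at Rpl35, +230 bp at Rps10 and +96 bp at Rpl12. Each of these lay within 102 bp of another annotated TSS of the same gene. All except that of Rpl19 also lay at most 1 kb from a TSS of another coding gene in both replicates. The other gene was Sphk2 for Rpl18, Clhc1 for Rps27a, Trappc4 for Rps25 and Arpc5l for Rpl35. For Rps10 it was RPS10-NUDT3 and for Rpl12 it was Lrsam1, so these peaks cannot be assigned to 1 gene. Rpl32 (−28 and −308 bp), Rpl35a (−38 and −238 bp) and Rpl7 (−114 and +246 bp) had their strongest peak at different places in the replicates, the only 3 genes with no overlap. At 51 genes the peak began at the same base in both replicates and at 23 it shifted by 20 bp, the step of the grid on which the peaks lie.

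Past the start site, a peak covered the base 480 bp downstream of the main TSS in 27 of 73 standard genes (37.0%) in replicate 1 and 25 (34.2%) in replicate 2. The shares over all genes with a promoter peak were 20.9% and 21.2%, themselves a rise from 10.2% and 10.1% at +140 bp. In replicate 2 the standard genes were about as high at +800 bp, at 32.9%. The position was chosen after seeing the profile. Such a peak was present in both replicates at 18 standard genes and at Rps27l, and among the 18 its mean signal had a median of 30.1. Rps25 (186 and 205) and Rpl35 (127 and 142) led because this was their strongest promoter peak. Next were Rpl7a, at 45.2 and 43.8, and Rpl8, at 35.8 and 45.5. Small nucleolar RNA genes lay inside 7 of the 18, beside 28 of the 78 genes with a promoter peak.

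Some promoters were shared. At 16 genes the strongest peak in at least 1 replicate also belonged by distance to another coding gene, whose TSS was at most 1 kb away, at 15 of them in both replicates, and for all genes with a promoter peak the share in both was 17.8%. The other gene lay on the opposite strand in 15 of the 16. The nearest start sites were 10 bp apart at Rps28 and Ndufa7, a subunit of respiratory complex I. They were 33 bp apart at Rps25 and Trappc4, 44 bp at Rps27 and Rab13, 53 bp at Rpl9 and Lias, 69 bp at Rpl15 and Nkiras1, 69 bp at Rpl18 and Sphk2, and 87 bp at Rpl7a and Med22. The exception was Rps10, which lies on the same strand as the annotated readthrough gene RPS10-NUDT3. Which gene such a peak belongs to cannot be told from the peak list. When peaks at another coding gene were left out, 66 of 82 genes still held one in each replicate, beside 13339 of 20807 over all autosomal genes.

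The 5 genes outside the standard list with a peak had signals within the range of the standard genes. Rpl36al, a relative of the X-linked Rpl36a, had 171 and 195 (183 ± 16.9, SD, n = 2), beside 85.2 and 111 at Rpl36a, and its peak also lies at Mgat2. Rps27l, a p53 target, had 163 and 179, and its relative Rps27 had 150 and 173. Rpl22l1 had 145 and 170, below the 272 and 317 of Rpl22 in both replicates. Rpl7l1 had 132 and 151, and Rpl7 had 124 and 150, so that these overlapped. Rps19bp1 had 141 and 131. It was 1 of only 4 genes with a higher signal in replicate 1 than in replicate 2.

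**Figure D4:**
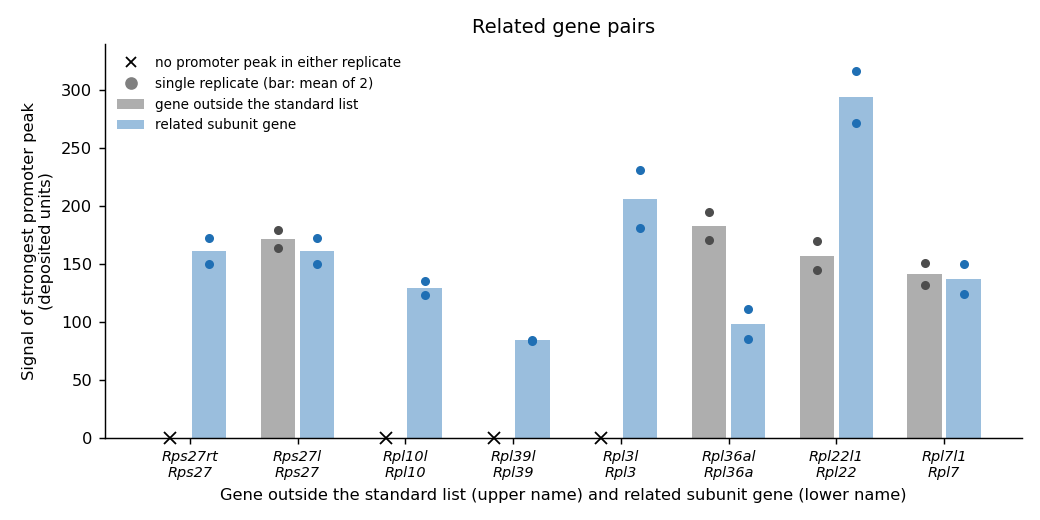
Signal of the strongest promoter peak (vertical axis, deposited units) of 8 relatives (grey) and of the subunit gene each resembles (blue), with bars for means of 2 replicates, points for single replicates and crosses for no peak. Rps27rt, Rpl10l, Rpl39l and Rpl3l carry crosses beside a subunit gene with a peak.

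The 4 relatives without a promoter peak each resemble a gene that had one. Rpl10l, a single-exon copy known for its use in male germ cells, had no peak nearer than 49766 bp in replicate 1 and 102394 bp in replicate 2, whereas Rpl10 had a promoter signal of 123 and 135. Rpl39l, also known from testis, had its nearest peak at 22648 bp, and Rpl39 had 83.2 and 84.5. Rpl3l is known as the form used in striated muscle. Its nearest peak lay 3384 bp away with a signal of 143 and 157, and Rpl3 had a promoter signal of 181 and 231. Rpl3l lies 7710 bp from Rps2 on chromosome 17.

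Rps27rt is a 1-exon copy of Rps27 on chromosome 9, whereas Rps27 on chromosome 3 has 4 exons. Of its 374 transcript bases, 341 in a row are identical to Rps27, starting at base 5 of the Rps27 transcript. Upstream, only 21 of 100 bases are identical. Rps27 had a promoter signal of 150 and 173 (161 ± 16.2, SD, n = 2), and Rps27rt had no promoter peak. Its nearest peak was 2624 bp away, with a signal of 13.4 in both replicates. The pair of sequences shows what was copied and what was not, with the identical transcript bases in capitals. Rps27rt is read from chr9:114982720-114982779 (minus strand) and Rps27 from chr3:90213628-90213687 (minus strand). Reads of 36 nt from copied bases that lie within 1 exon of Rps27 cannot be told apart, while the bases before the start differ. The annotated start of Rps27rt falls on the C of the pyrimidine run, and it is the only relative among the 11 genes counted above, while that of Rps27 falls 4 bases before the same C.
Rps27rt: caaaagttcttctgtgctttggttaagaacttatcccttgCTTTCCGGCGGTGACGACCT
Rps27: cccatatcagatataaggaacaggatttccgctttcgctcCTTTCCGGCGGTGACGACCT

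Annotated -ps pseudogenes of ribosomal proteins, mostly copies of mRNA, were rarely open. Of 247 that lie over 2 kb from a coding TSS, 20 (8.10%) had a peak within 1 kb of their start in both replicates, with a median signal of 23.2, and at 1 the peak lay on the copy itself. Other processed pseudogenes gave 586 of 8392 (6.98%). The handling of reads that match several places is not stated in the labels or headers.

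Distal sites, shared by both replicates and over 1 kb from any TSS, numbered a median of 9 within 50 kb of the genes, beside 6 for all autosomal genes and 8 for those with a promoter peak. The 60S genes had a median of 10 and the 40S genes of 6. Most were found at Rpl10a (24), Rpl19 (22), Rps14 (22), Rps21 (21) and Rpl23 (20). The fewest were at Rpl10l (0), Rps27a (1) and, with 2 each, Rpl22l1, Rpl39l, Rps25 and Rps9. Gene density was not the same, with a median of 3 coding genes with a start within 50 kb, beside 2 for all genes, and its part in the counts was not tested.

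**Figure D5:**
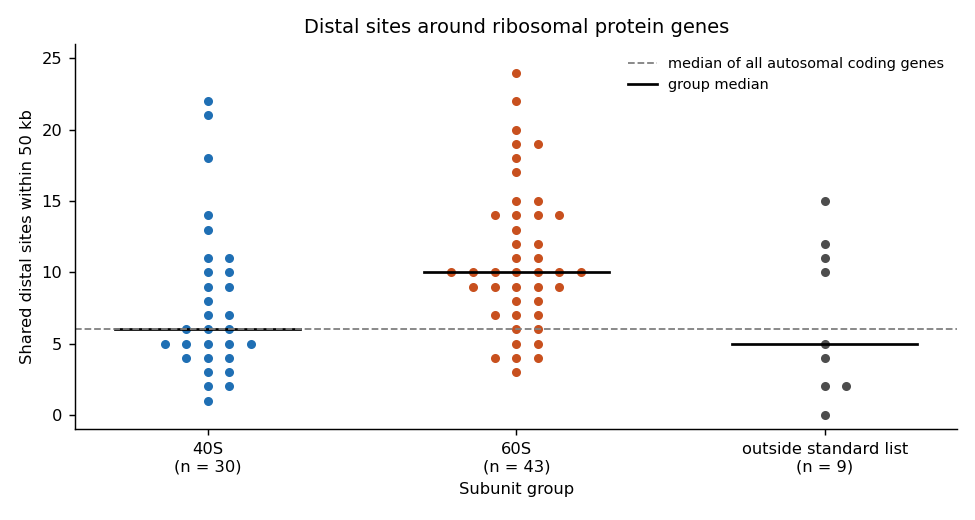
Number of shared distal sites within 50 kb (vertical axis) of each of the 82 genes by subunit group, 1 point a gene, with a line at each group's median and a dashed line at the median of all autosomal coding genes. The 60S genes have their median at 10, above the dashed line at 6, and the ranges of the subunits overlap.

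The strongest distal site near a gene could be weaker or stronger than its promoter. At Rps21 it lay 18638 bp downstream with 129 and 130, below the promoter's 235 and 290. At Rpl10a, the strongest of 24 had 97.8 and 105 at −19486 bp, and the promoter had 154 and 195. Rpl19 differed, since a site at −38974 bp had 171 and 189 and its own promoter 124 and 121. The single site at Rps27a had 22.1 and 17.8, against a promoter of 101 and 135. The sites are not linked to a target gene by these data.

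Replicate 2 gave the higher signal at 74 of 78 genes, beside 11228 of 15262 over all autosomal genes with a promoter peak. At the mitochondrial ribosomal protein genes it was higher at 72 of 78. After centring on all shared sites, the log2 ratio of replicate 2 to replicate 1 had a median of 0.23, beside 0.14 for all genes. The largest ratios were at Rps10 (0.58), Rpl37a (0.51), Rpl35a (0.49), Rps27a (0.43) and Rpl12 (0.42). The smallest were at Rps19bp1 (−0.09), Rps20 (−0.07), Rpl19 (−0.01), Rps14 (0.01) and Rpl18 (0.04). Over the 78 genes, Pearson's r of the log2 signals was 0.955 and Spearman's rho 0.957. This is a description across genes, which share the same 2 libraries. The mitochondrial ribosomal protein genes had a median log2 ratio of 0.21.

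Small nucleolar RNA genes, which lie in introns of many ribosomal protein genes and guide rRNA modification, numbered 56 inside 28 of the genes. The median mean signal was 187 for the genes with them and 164 for the 50 without, a difference that was not tested. Signals overlapped, since Rps19, the highest at 297, held none and Rpl6, the lowest at 92.8, held 1. The share of all autosomal genes with small nucleolar RNA genes inside was not computed. The 82 genes lay on 18 chromosomes, with 14 on chromosome 7, and the share of all genes there was not computed.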

How the data were processed

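DNase-seq of 2 replicates of 1 group was analysed. The authors deposited 1 peak list per replicate, called per sample from 36-nt reads on mm10, per the file headers. The deposited signal of each peak is in the authors' own units, and the deposited −log10 p has a limit of 324. The sources used here name no aligner, no peak caller and no depth, so the error of a peak's signal is unknown. A gene's promoter signal was that of its strongest peak overlapping 1 kb to each side of any GENCODE M21 TSS. A site was shared where peaks of both replicates overlapped by at least 1 bp. The main TSS came from the coding transcript with the best APPRIS tag. With 1 group, no test was possible and no p-value was computed. The genes and lists were chosen with earlier results of these data known. Named genes were the 10 highest and 5 lowest in signal, those without a peak or outside the standard list, and the 5 at each end of distal counts, replicate ratios and peak positions; others illustrate roles, shared promoters and sequences. Some genes that this rule names, and a sequence, are not reported here, although the counts and medians include them. Sequences and motif matches came from GRCm38. Simulated data returned 200 of 200 planted promoter peaks, 200 of 200 positions and 40 of 40 shared sites. Python 3.11.15, pandas 2.3.3, numpy 2.4.6, pysam 0.24.0 and matplotlib 3.10.9 were used.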

Additional observations from a re-analysis of the deposited data

How the results depend on the processing

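The number of genes with a promoter peak ranged from 66 (without peaks at another coding gene) to 78, and the median promoter signal from 160 to 187, over a window of 500 bp, the main TSS alone, standard genes alone and each replicate left out. The median position ranged from −40 to −37 bp over the nearest TSS, a window of 500 bp and each replicate left out. The median number of distal sites was 4 within 25 kb (3 for all genes), 18 within 100 kb (14), 4 for peaks in the upper 50% of signal (3) and 8 when overlap had to cover 50% of the shorter peak (6). With 1 replicate left out it ranged from 11 to 11.5 (9 and 8 for all genes). Genes with a pyrimidine run at the start numbered 22 at any coding TSS and 7 with at least 6 pyrimidines. At single genes, leaving out peaks at another coding gene lowered the mean signal to 12.4 at Rpl12, 9.13 at Rpl9 and 19.6 at Rps10 and left 12 genes without a peak. No paired analysis was possible because there was 1 group. Depth is unknown, so a missing peak means that none was called.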
